A study of Sus scrofa with 57 samples.

Results

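Small nucleolar RNAs (snoRNAs) of the box C/D class were followed in mature fat cells of lean and obese pigs, as genes whose name begins with SNORD or snoU. The annotation that the authors used holds 261 such genes, and 51 of them, with 31 different names, had an FPKM above 0 in at least 1 RNAseq library, out of 25285 gene identifiers in the tables. FPKM is the number of sequenced fragments divided by the length of the transcript and by the number of mapped fragments of the library. This detection chose the 51 genes, so that they are present in the data is no finding. Their levels in lean against obese pigs played no part in the choice.

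Box C/D snoRNAs are short nuclear RNAs that pair with a target RNA and place a methyl group on the ribose of 1 of its bases. The methyl group is transferred by fibrillarin (FBL), which sits on the snoRNA with NOP56, NOP58 and the protein SNU13 (NHP2L1). Most targets are ribosomal RNAs or the U6 spliceosomal RNA. In mammals most box C/D snoRNAs are cut out of introns, often of genes for ribosomal proteins and translation factors, and are then trimmed by exonucleases. Others, such as SNORD116 and SNORD115, form clusters that are expressed from the paternal chromosome alone, and have no known target in ribosomal RNA.

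The animals were F2 pigs from an intercross of Duroc and Göttingen minipigs, chosen as extremes of a lean and an obese phenotype, kept in 1 environment with free access to food, and slaughtered at 8 to 13 months of age. RNAseq was made on 5 lean males (pig-402, pig-407, pig-413, pig-525 and pig-577) and 5 obese males (pig-433, pig-473, pig-524, pig-529 and pig-572), from total RNA depleted of ribosomal RNA. An 11th library is titled pig-572(B), but its description carries another animal number, so that whether it is a second library of pig-572 or of another obese pig is not settled. It was taken as the former, by its title, and averaged with pig-572, which gives n = 5 in each group. With the libraries entered separately, 155 in place of 1 of all genes tested, and still no member, passed an adjusted p of 0.05 in limma. The cells were mature adipocytes freed from retroperitoneal fat by collagenase. Neither group had a treatment, and the phenotype was not induced by an allele or a diet that the labels name.

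Lean and obese libraries overlapped in the number of members above 0, with 25 to 32 in lean libraries and 23 to 29 in obese ones. Of the 10 adipocyte markers on the list, 5 were found by name, and their summed level was between 886 and 1078 scaled FPKM in lean pigs and between 1002 and 1128 in obese pigs, where scaled means divided by a size factor of the library. ADIPOQ, CIDEC, FABP4, LPL and PNPLA2 were not found by name in the tables. The 6 fibroblast and preadipocyte markers found summed to between 227 and 664 scaled FPKM in lean pigs and between 248 and 627 in obese pigs, and the 8 leukocyte markers to between 3.07 and 5.97 over both groups, with CD163 under 0.1 in every pig. The 4 endothelial markers found summed to between 1.47 and 11.7 scaled FPKM, and the 3 of skeletal muscle to at most 1.04, with MYH1 under 0.1 in every pig. The 4 markers of red blood cells, with HBM under 0.1 in every pig, summed to between 13.3 and 81.2 in lean pigs and between 15.9 and 38.2 in obese pigs. The part of these cells in the results was not tested. In these bulk samples fewer cells with a snoRNA and less of it per cell cannot be told apart.

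The values of the members were coarse, because FPKM divides by the length of the RNA that a fragment can start in, and that length is close to 0 for an RNA shorter than the fragments of the library. The confidence bounds that cufflinks gave for each FPKM were read as those of a Poisson count, which gives the number of fragments behind a value. Of the 91 values of members that came to between 1 and 10 fragments, 81 (89.0%) were within 0.02 of a whole number. At larger numbers the bounds were slightly wider than those of a Poisson count, and the fragments given here are then slightly too low.

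One fragment on a locus of 50 to 79 bases was worth 1418 to 2785 FPKM, with a median of 2104 over small RNA genes and libraries. On a locus of 90 to 99 bases 1 fragment was worth 322 to 899.99 FPKM, and on a locus of 100 to 119 bases 16.5 to 205. The reads were 100 bases long. For loci of 120 bases and more the median value of 1 fragment was 5.59 FPKM. The plot of this value against locus length shows that members and other small RNA genes lie on 1 steep curve.

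**Figure D1:**
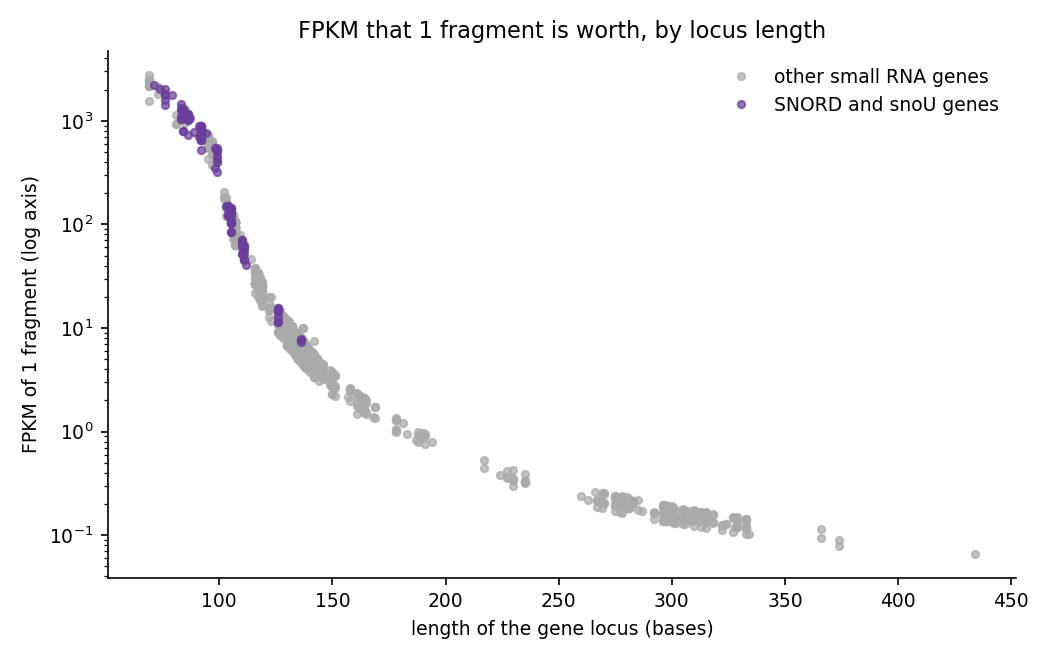
Each point is 1 small RNA gene in 1 library whose value rested on a whole number of fragments. The horizontal axis is the length of the gene locus in bases and the vertical axis, which is logarithmic, the FPKM that 1 fragment was worth. The value falls from over 1418 FPKM below 80 bases to a median of 5.59 FPKM at 120 bases and more.

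The length of the locus also went with being seen at all. Of the 134 SNORD and snoU genes of 50 to 79 bases, 8 (5.97%) were above 0 in some library and none in all 11. Of the 20 genes of 120 bases and more, 11 (55.0%) were above 0 and 10 were above 0 in all libraries. Other small RNA genes showed 5.13% and 44.3% above 0 in the same length classes. In the classes between, of 80 to 89, 90 to 99 and 100 to 119 bases, 27.5%, 37.5% and 28.1% of the SNORD and snoU genes were above 0, against 1.62%, 3.10% and 7.78% of other small RNA genes. The 51 members had a median locus length of 92 bases and the 210 genes at 0 in every library one of 76 bases. A value of 0 allows up to 3 fragments, which at 50 to 79 bases is 6312 FPKM at the median value of a fragment, so a 0 there is not evidence of absence. This limit covers counting error only.

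Of the 561 member values over 11 libraries, 46.2% were 0, and 119 of the 302 values above 0 (39.4%) rested on at most 2 implied fragments. This count includes values of divided reads, whose implied number is too low. The values that rested on 1 fragment reached from 45.5 to 2212 FPKM. The median value above 0 rested on 14.4 fragments, against 504 fragments for the 9878 genes that are no small RNA and reached 1 FPKM on average. There were 19 members above 0 in all 11 libraries, 18 in 2 to 10 libraries and 14 in a single library. At least 100 fragments stood behind 9 members in every library.

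SNORD97, a 141-base gene inside the locus of the translation factor EIF4G2 (chr2:52020793-52020933, Sscrofa10.2), had the highest level of the members. Its scaled FPKM was 29400.0 in pig-402, 52399 in pig-407, 83743 in pig-413, 74569.6 in pig-525 and 88729.7 in pig-577 among the lean. In the obese pigs it was 41426 in pig-433, 55965 in pig-473, 23228 in pig-524, 43201 in pig-529 and 31372 in pig-572. The lean pig-413, pig-525 and pig-577 were above every obese pig, and the lowest lean pig was among the lowest obese ones. Lean pigs had a mean of 65768 ± 24643 and obese pigs one of 39038 ± 12432.5 (SD, n = 5 in each). The log2 fold change of -0.71 ± 0.36 (SE) did not pass limma's test (adjusted p = 0.284). This gene rested on 4379 to 15281 fragments per library.

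SNORD22, the second by FPKM (ENSSSCG00000029549, 128 bases on chromosome 2), had scaled FPKM of 12777, 14976, 30734.5, 33954 and 34457 in lean pig-402, pig-407, pig-413, pig-525 and pig-577. The obese pig-433, pig-473, pig-524, pig-529 and pig-572 had 14167, 21215, 9577, 13455 and 22722. The lean pig-413, pig-525 and pig-577 were again above all obese pigs, and the others overlapped with them. The log2 fold change was -0.59 ± 0.37 (SE) with an adjusted p of 0.381 in limma. A second SNORD22 gene had means of 179 ± 75.8 scaled FPKM in lean and 139.7 ± 39.9 in obese pigs (SD, n = 5 in each), on 6 to 20 fragments, and the other 8 of the 10 annotated SNORD22 genes were at 0 in every library.

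SNORD15, within the locus of the ribosomal protein gene RPS3 on chromosome 9 (ENSSSCG00000025715, 145 bases), was at 8342, 13518, 19946, 19524 and 19673 scaled FPKM in the lean pigs, in the same order. The obese pigs were at 9738, 13114, 9054, 14189.6 and 12919. The lowest lean animal, pig-402, lay below every obese pig and 3 lean pigs lay above all of them. Its log2 fold change was -0.41 ± 0.28 (SE, adjusted p = 0.434 in limma). The second SNORD15 gene, in no host locus, had means of 2373 ± 886 in lean and 1804 ± 399.6 in obese pigs (SD, n = 5 in each).

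SNORD10 lies within EIF4A1, a helicase of translation initiation, and has a second, near-identical entry on an unplaced sequence. The entries had 2666.5 ± 1237 and 2638 ± 1210.03 scaled FPKM in lean pigs, and 1836 ± 502.8 and 1824 ± 517 in obese pigs (SD, n = 5 in each). Because reads that match both copies are divided between them, the level of either entry is uncertain. Both had a log2 fold change of -0.43 with an SE of 0.37 and 0.36, and neither passed the test (adjusted p = 0.518 and 0.516 in limma).

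**Figure D2:**
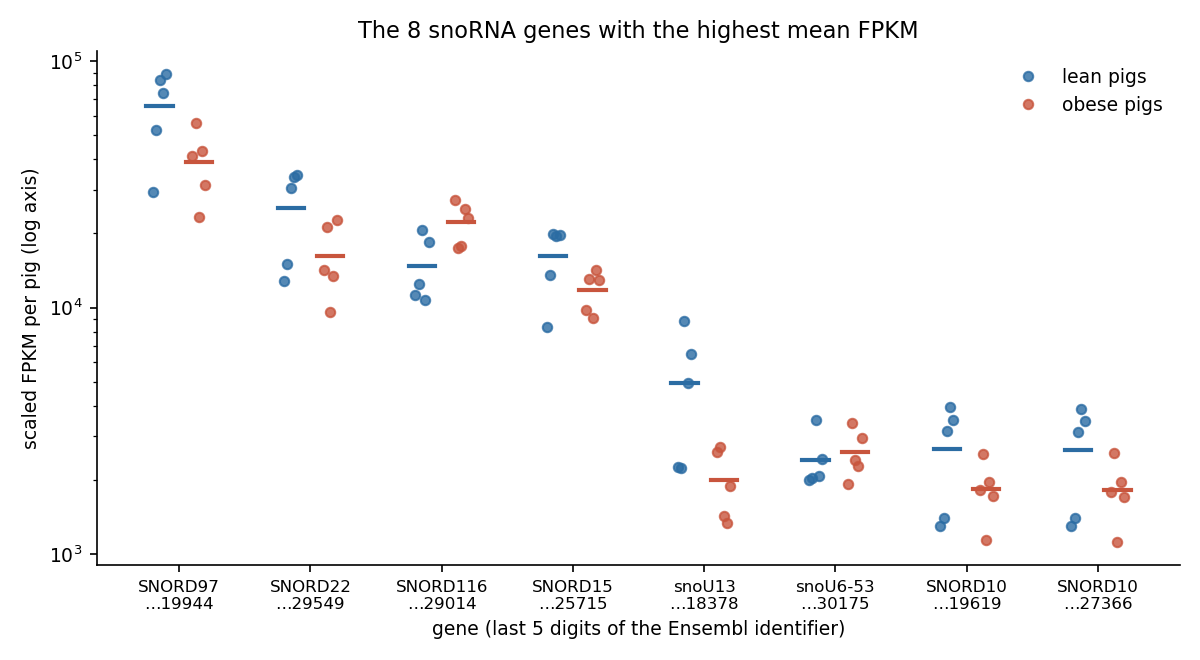
Points are the scaled FPKM of single pigs on a logarithmic axis, blue for the 5 lean and red for the 5 obese pigs, and bars are group means, for the 8 genes with the highest mean FPKM among those above 0 in all libraries. The means were lower in obese pigs for SNORD97, SNORD22, SNORD15, snoU13 and SNORD10 and higher for SNORD116 and snoU6-53, and the groups overlapped for all 8.

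The longest members were less prominent in FPKM than in fragments. SNORD17 (237 bases, chromosome 17) had means of 1152 ± 566 scaled FPKM in lean and 730.5 ± 226 in obese pigs (SD, n = 5 in each), on 1634 to 5478 fragments per library. The gene labelled snoU89 (255 bases), which lies within PHB2, was at 978 ± 479 in lean and 607 ± 199 in obese pigs (SD, n = 5) on 1721 to 5242 fragments. Its name is that of an RNA of Cajal bodies, where spliceosomal RNAs are modified, and not of a plain box C/D snoRNA. The log2 fold changes were -0.54 ± 0.40 (SE, adjusted p = 0.465) and -0.62 ± 0.35 (SE, adjusted p = 0.338), both in limma. SNORD94 in PTCD3, which guides a change on U6, was at 1810 ± 667 and 1751 ± 317 (SD, n = 5), with a log2 fold change of 0.02 ± 0.28 (SE).

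The genes labelled snoU6-53, within CHD8 on chromosome 7, are named for the U6 RNA. The first had 1989.7, 2034, 3489.7, 2073 and 2419 scaled FPKM in lean pig-402, pig-407, pig-413, pig-525 and pig-577, and 1916, 3402, 2415, 2278 and 2955 in obese pig-433, pig-473, pig-524, pig-529 and pig-572. The lean pig-413 stood apart from the other lean pigs, and the obese pigs spanned nearly the same range. The log2 fold changes of these genes were 0.12 ± 0.23 and 0.17 ± 0.45 (SE), with adjusted p of 0.792 and 0.853 in limma.

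SNORD116 had rank 3 among the members by FPKM and rank 12 by fragments. Its 6 annotated genes lie on chromosome 1 between 157991388 and 158009704 (Sscrofa10.2), outside any other gene locus, and the 5 annotated SNORD115 genes, at 0 in every library, begin at 157920155 on the same chromosome. Of the 6, 4 were above 0 and are 92 bases long each. The first of these 4, ENSSSCG00000029014 at 158000986 to 158001077, had 11296 scaled FPKM in pig-402, 12451 in pig-407, 20651.5 in pig-413, 10769 in pig-525 and 18462 in pig-577. The obese pigs had 27311 in pig-433, 17471 in pig-473, 17807 in pig-524, 25162 in pig-529 and 23171.5 in pig-572.

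The lean pig-402, pig-407 and pig-525 were below all obese pigs, while the lean pig-413 and pig-577 lay within the obese range. Lean pigs had a mean of 14726 ± 4519 and obese pigs one of 22185 ± 4402 (SD, n = 5 in each), and the log2 fold change was 0.62 ± 0.25 (SE). The adjusted p was 0.211 in limma, with an unadjusted p of 0.0334 and a two-sided exact permutation p of 0.0476, where 0.0079 is the smallest that 5 pigs against 5 allow. The unadjusted p was no longer under 0.05 in 6 of the 10 fits that left out 1 pig (0.0670 to 0.0923), with the first library of pig-572 alone (0.0669), and with no filter on low values (0.281). These values rested on 16 to 38.9 fragments per library. For pig-572 the libraries gave 16901 and 29442 scaled FPKM on 22.8 and 28.0 fragments, further apart than the group means. That gap depended on the scaling, with size factors of 1.01 and 0.697. As deposited, the values were 17090 and 20526 FPKM.

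By the bounds, the other 3 SNORD116 genes held at most 3 fragments in any library, mostly not a whole number. Reads that match several copies are divided among them, and for such reads the bounds give too few fragments. In pig-529 the second gene had 2940 FPKM as deposited, where 1 fragment on the first was worth 854 FPKM. The means of these 3 genes were 1175 ± 919, 434.6 ± 311 and 502.8 ± 274 scaled FPKM in lean pigs and 1549 ± 787, 908 ± 804 and 743 ± 553 in obese pigs (SD, n = 5). All 3 overlapped between the groups, and none passed the test (adjusted p of 0.515, 0.533 and 0.773 in limma). The 4 genes summed to 16838 ± 5646 scaled FPKM in lean and 25384 ± 6008 in obese pigs (SD, n = 5 in each), with a two-sided exact permutation p of 0.0635. Since fragments are assigned among near-identical copies, the sum is less dependent on that assignment than any single gene.

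The gene labelled snoU13, whose RNA helps to process the 18S ribosomal RNA, was the member with the lowest p among those above 0 in every library. This entry (ENSSSCG00000018378, 104 bases, chromosome 15) is 1 of 22 annotated snoU13 genes, of which 3 were above 0. It was at 2260.2, 2228, 8814, 4959 and 6485 scaled FPKM in lean pig-402, pig-407, pig-413, pig-525 and pig-577, and at 2595, 2713, 1421, 1341 and 1891.5 in obese pig-433, pig-473, pig-524, pig-529 and pig-572. Lean pig-413, pig-525 and pig-577 were above all obese pigs, and pig-402 and pig-407 lay within the obese range. The log2 fold change was -1.16 ± 0.42 (SE), with an adjusted p of 0.182 and an unadjusted p of 0.0184 in limma and a two-sided exact permutation p of 0.0556. The library values rested on 9 to 53.9 fragments.

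The gene snoU109, within TMEM167A, is a member by its name alone, and whether it is a box C/D snoRNA was not checked. It was at 0 in every obese library and in the lean libraries of pig-402 and pig-407. The lean pig-413, pig-525 and pig-577 had 3, 3 and 2 fragments (21.4, 20.0 and 16.9 scaled FPKM). Its unadjusted p of 0.0178 in limma (adjusted p = 0.181) rested on these 8 fragments, no more than 3 per library, in a gene that was tested only because of them. No direction is drawn from it and no fold is given, because neither group was above the floor of 3 fragments per library. SNORD46 had 1126 ± 725 in lean and 533 ± 390 scaled FPKM in obese pigs (SD, n = 5) on 1 to 17 fragments (log2 fold change -1.08 ± 0.52, SE, adjusted p = 0.267 in limma).

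Of the 10170 genes tested in limma, whose scaled FPKM averaged 1 or more, 1 gene passed an adjusted p of 0.05, which is 0.00983% of them, and 20.6% had an unadjusted p under 0.05. Of the 50 members tested, none passed the adjusted threshold and 3 had an unadjusted p under 0.05, namely snoU13, with a lower value in obese pigs, the first SNORD116 gene, with a higher one, and snoU109. The last of these was at 0 in all obese libraries and reached the mean of 1 through 3 lean pigs alone, so its p is not counted as a difference. With it, the share of 6% lay below the background, where 9.51% of all genes were lower and 11% higher in obese pigs with an unadjusted p under 0.05. This share includes the 14 members above 0 in 1 library, whose lowest unadjusted p was 0.276 in limma. Whether the coarse values lowered the share was not tested. Of the 19 members above 0 in all libraries, 2 had an unadjusted p under 0.05. The same number was found among the 15 members with at least 5 fragments in every library. In both of these sets the share also lay below the 20.6% of all genes. No member had lean and obese pigs that did not overlap, against 4.14% of all genes. A member at 0 in pigs of both groups cannot separate them, and 31 of those tested were at 0 in some libraries. The count is therefore partly fixed by the zeros, and nothing is drawn from it. Of the 50 members tested, 22 rested on at most 3 implied fragments in all libraries together, a number that is too low for divided reads. SNORD49, with 0.0292 FPKM at most, was the 1 member not tested.

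Among the 19 members above 0 in all libraries, 12 had a lower and 7 a higher value in obese pigs, where 49.3% of all genes were lower, and SNORD94 turned from higher to lower with FPKM as deposited or upper-quartile scaling. The 7 were the 4 SNORD116 genes, 3 of which share fragments with their neighbours, the 2 snoU6-53 genes and SNORD94. The median log2 fold change was -0.35 over these 19 and 0.0053 over all genes, and the median SE was 0.37 against 0.14. Box H/ACA and Cajal body RNAs above 0 in all libraries also had a median SE of 0.37, so this was not particular to the members. For members of few fragments the SE holds counting error as well as variation between pigs. In the 50 members tested the median was -0.38, a value that includes genes seen in 1 library alone. This median lay between -0.62 (without pig-407) and -0.27 (without pig-525) when 1 pig was left out, and was -0.17 with a pseudocount of 100. These medians are given as a description and without a test.

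**Figure D3:**
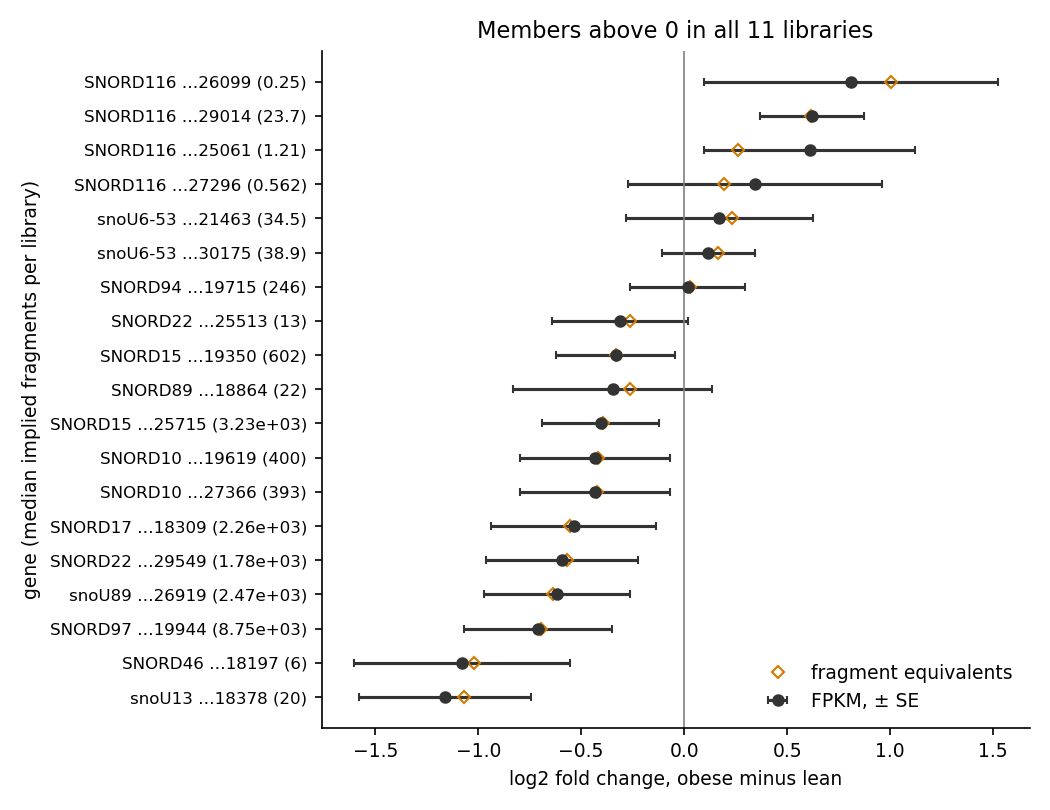
Filled points are log2 fold changes (obese minus lean) of FPKM with their SE for the 19 members above 0 in all libraries, and open diamonds are those of fragments per relative depth of the library. The number after each gene is its median of implied fragments per library. Of the 19, 12 lie below 0, snoU13 at -1.16 is the lowest, and the filled and open symbols lie on the same side of 0 for each gene.

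The order of the pigs was shared among many members. In 10 of the 19 members above 0 in all libraries, pig-413, pig-525 and pig-577 held the 3 highest scaled FPKM, against 8.91% of all genes tested. These were SNORD97, both SNORD22, both SNORD15 and both SNORD10 genes, SNORD17, SNORD89 and snoU13. The SNORD10 entries are near-identical and were both counted. The same 3 pigs had the highest summed FPKM over all genes, between 1405500 and 1559040, where the other libraries had between 850150 and 1331120. Small RNA genes made 66.5% to 80.8% of these sums, so the sums are no separate observation. Among the members without this order, snoU89 was highest in pig-577 (1745 scaled FPKM), then pig-525 (1039) and pig-407 (893), and pig-407 exceeded pig-413 (754). Leaving out lean pig-402, which was low for these genes, gave 8 members with an unadjusted p under 0.05, namely SNORD97, SNORD22, SNORD17, SNORD15, snoU89, snoU13, snoU109 and 1 SNORD45 gene, and none with an adjusted p under 0.05 in limma. In that fit 26.2% of all genes had an unadjusted p under 0.05, against 16.7% of the 48 members tested. The latter share includes members seen in 1 library alone, so whether the 8 exceeded the background was not decided. The first SNORD116 gene was not among the 8.

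The library titled pig-572(B) was compared with pig-572 itself. As the labels do not settle whether both come from 1 animal, a difference between libraries and one between pigs cannot be told apart. Over the 19 members the absolute log2 ratio of pig-572(B) to pig-572 had a median of 0.27, and the SD of log2 values over the 5 obese pigs one of 0.48. The lowest ratio was -1.06 for the second SNORD116 gene and the highest 1.71 for SNORD46, both of few fragments. After scaling SNORD22 also differed, with 17276 against 28169 scaled FPKM on 1778 and 1796 fragments, while SNORD97 had 32085 and 30659. As deposited, SNORD22 had 17468 and 19638 FPKM, and SNORD97 had 32443 and 21375 on 7079 and 4379 fragments. Which of these genes differed more thus depended on the size factors of 1.01 for pig-572 and 0.697 for pig-572(B).

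The members took between 10.98% and 15.0% of the summed FPKM in lean libraries and between 8.17% and 12.6% in obese ones. Averaged over pigs, the share came to 12.7% ± 1.73 for lean and 11.2% ± 1.53 for obese animals (SD, n = 5 in each), and the groups overlapped. All small RNA genes together took 66.5% to 80.8%, and the box H/ACA and Cajal body RNAs 9.46% to 22.9%. Within the members, SNORD97 made 34.7% to 47.0% of the summed FPKM in lean and 22.6% to 38.9% in obese libraries. The first SNORD116 gene made 5.99% to 13.3% in lean and 12.1% to 23.3% in obese libraries. In fragments this gene made 0.0456% to 0.120% in lean and 0.0967% to 0.212% in obese libraries, of 13625 to 35118 fragments of members per library. Members shorter than 100 bases held 12.9% to 38.1% of the members' FPKM and 0.0871% to 0.316% of their fragments.

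**Figure D4:**
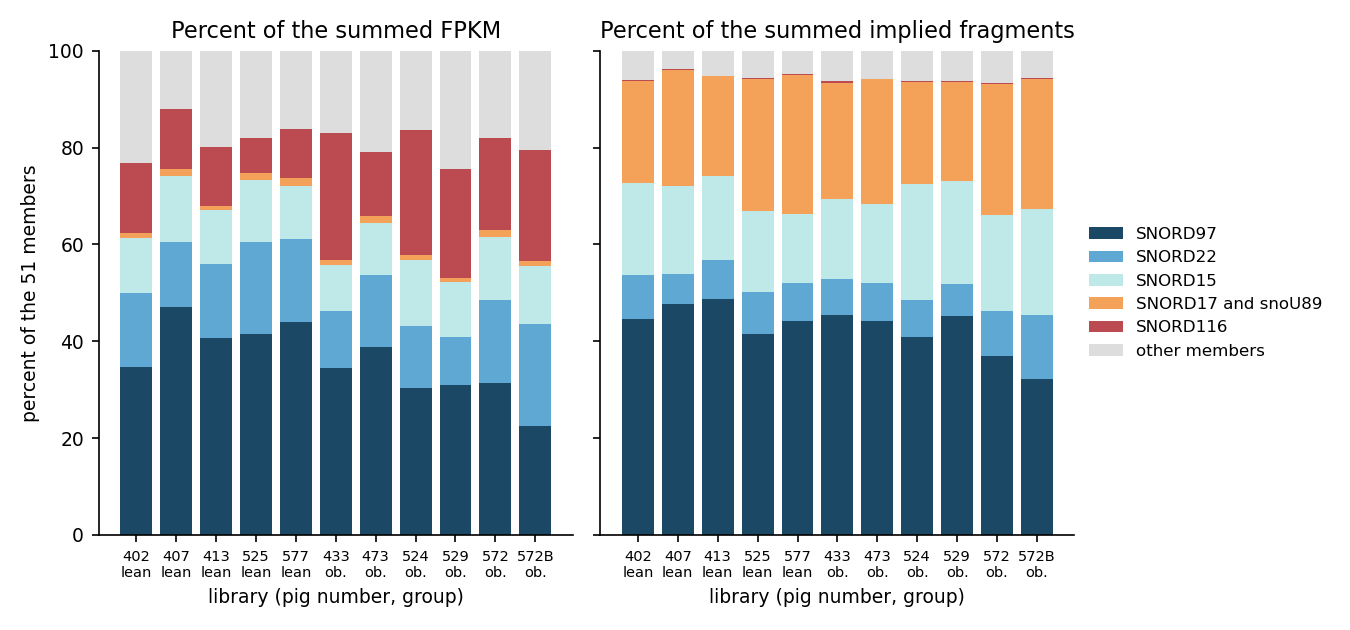
Stacked bars give the percent of the 51 members' summed FPKM (left) and of their summed implied fragments (right) that each named group held, for each library, marked by pig number and by lean or obese (ob.). SNORD116 takes a wide band in FPKM, at most 23.3% for its first gene, and hardly shows in fragments, while SNORD17 and snoU89 show the reverse.

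Many members lie in introns or exons of longer genes, and the host genes were read for comparison, by position alone. Of the 51 members, 32 lay wholly within the locus of a gene that is no small RNA, with 24 different hosts, and of the 210 genes at 0, 96 did. Of the 24 hosts, 17 had a lower and 7 a higher value in obese pigs (HSPA9, at a log2 fold change of 0.0057, turned with the scaling). In limma 9 had an unadjusted p under 0.05, 8 of them with a lower value (background 20.6%), and none passed the adjusted threshold (lowest 0.133). RPL13A, EIF4A1 and HSPA8 each stand beside an unnamed entry that holds snoRNAs of the same names. These entries are counted as hosts of their own, so the 24 are not all independent genes. RPL13A and its unnamed counterpart are both among the 8. The lowest p was that of RABGGTB, host of SNORD45, at 18.7 ± 1.41 scaled FPKM in lean and 14.2 ± 1.82 in obese pigs (SD, n = 5). It was the 1 host of 24 whose groups did not overlap, where 4.14% of all genes did not. The 5 ribosomal protein hosts were all lower, by a log2 fold change of between -0.77 and -0.39. RPL3, host of snoU83B, was at 333 ± 101 scaled FPKM in lean and 191 ± 41.1 in obese pigs (SD, n = 5), and RPL13A, host of SNORD33 and SNORD35, at 504 ± 115.6 and 349 ± 66.7.

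RPS3, host of SNORD15, had a log2 fold change of -0.44 ± 0.17 (SE), close to the -0.41 of its snoRNA. EIF4G2, host of SNORD97, was at 141 ± 22.7 scaled FPKM in lean and 153 ± 17.6 in obese pigs (SD, n = 5), and its log2 fold change was 0.12 ± 0.15 (SE), where SNORD97 had -0.71. Over the 10 pairs of a host and a member above 0 in all libraries, 5 had the same sign. In this count SNORD94 depends on the scaling, and both near-identical SNORD10 entries are included. The difference between a host's and a member's fold change was not tested.

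The proteins of the box C/D particle were found for 4 of 5 core genes. FBL was at 7.42 ± 1.59 scaled FPKM in lean and 6.39 ± 0.381 in obese pigs, and NOP58 at 12.1 ± 3.21 and 11.4 ± 1.56. NHP2L1 was at 50.9 ± 5.91 and 41.8 ± 4.21, and RRP9, which binds the U3 snoRNA, at 6.30 ± 1.26 and 5.67 ± 0.759 (SD, n = 5 in each). All 4 had lower values in obese pigs, and none passed the adjusted threshold (lowest 0.229 in limma). Of the 4, 1 (NHP2L1, log2 fold change -0.28 ± 0.12, SE) had an unadjusted p under 0.05, where 20.6% of all genes had. Of the 7 assembly factors, among them the helicases RUVBL1 and RUVBL2, 4 had a lower and 3 a higher value, though 2 of the 3, ZNHIT3 and RPAP3, turned lower with FPKM as deposited or upper-quartile scaling. ZNHIT6 alone of the 7 had an unadjusted p under 0.05 (background 20.6%), at 4.44 ± 1.14 in lean and 5.63 ± 0.593 in obese pigs (adjusted p = 0.236 in limma).

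Of the 5 genes found on the list of trimming and debranching enzymes, the nucleases XRN1, XRN2, EXOSC10 and DIS3 were lower in obese pigs. PAPD5, listed with these nucleases, was higher. EXOSC10, the nuclear exosome subunit that trims snoRNA ends, was at 1.72 ± 0.318 in lean and 1.26 ± 0.114 scaled FPKM in obese pigs (SD, n = 5), with an adjusted p of 0.188 in limma. The 4 core proteins of the box H/ACA particle, DKC1, NHP2, NOP10 and GAR1, divided evenly, 2 with a lower and 2 with a higher value, of which NOP10 turned lower under the same scalings, with an adjusted p of 0.435 at the lowest. The box H/ACA and Cajal body RNAs, the other large class of snoRNAs, had a median log2 fold change of -0.57 over the 96 genes above 0 in all libraries, 88 of them lower in obese pigs, against 12 of 19 lower and a median of -0.35 in the members. The difference between the classes was not tested.

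DNA methylation was measured over the members by methyl-DNA capture. The table of regions, which the authors chose by their difference between obese and lean pigs, holds 7401 regions, and 8.68% of all gene loci and 0.855% of the 2340 small RNA loci overlapped with 1 of them. Among the 51 members these were the 4 SNORD116 genes above 0 and no other. The file lists 11 obese and 11 lean libraries, and pig-411, which is obese by its label, is listed among the lean ones. The study selected boars and sows in each group, so these libraries, unlike those of the RNAseq males, come from both sexes. The regions lie at chr1:157999601-158003100, over 2 of the genes, chr1:158004801-158007800 and chr1:158008101-158010000, over 1 each (Sscrofa10.2).

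In the first region of 3500 bases the obese libraries had a lowest value of 29.1, a median of 195 and a highest of 341 normalised reads, and the lean ones 54.8, 125 and 270.2. In the second, of 3000 bases, the obese libraries had 32.0, 155 and 269.8 and the lean ones 16.8, 92.8 and 171. In the third, of 1900 bases, they had 14.5, 143 and 208, against 7.23, 59.5 and 151 in lean libraries. The groups overlapped in each region, and in the first 10 of 11 obese libraries were above the lean median. The authors' means were 207, 156 and 130.1 in obese and 128, 91.5 and 68.9 in lean pigs. The regions were selected on this contrast, so the differences are given with no test.

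**Figure D5:**
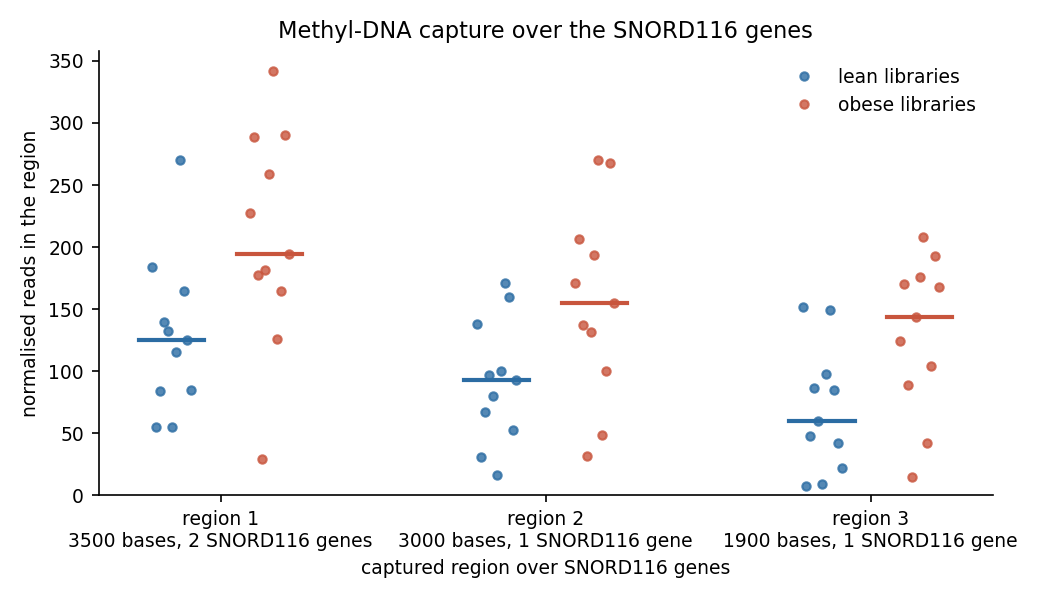
Points are the normalised reads of single libraries in the 3 captured regions over SNORD116 genes, blue for the 11 lean and red for the 11 obese libraries as the file lists them, and bars are medians. The obese medians of 195, 155 and 143 lie above the lean medians of 125, 92.8 and 59.5, with overlap in every region.

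These regions were densely covered, with more reads than between 98.0% and 98.5% of all captured regions. Per kilobase the authors' means came to 59.2, 51.9 and 68.5 reads in obese and 36.6, 30.5 and 36.3 in lean pigs, against medians of 10.6 and 15.3 over all regions. Most of the 7401 regions had more reads in lean pigs and 2165 more in obese pigs, these 3 among the latter. The library with the lowest and that with the highest value among the obese were the same in all 3 regions. A further region, chr1:158061401-158062600, which lies 51697 bases from the nearest member, went the other way with authors' means of 16.8 in obese and 30.1 in lean pigs. The libraries in this table could not be matched to the RNAseq pigs, so methylation and SNORD116 levels were not compared by animal. No member was overlapped by a region from bisulfite sequencing with at least 5 pigs per group, where 1.07% of all gene loci were.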

How the data were processed

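The authors mapped the RNAseq reads to Sscrofa10.2 with STAR 2.3.1 and assigned them to Ensembl annotation 70 with cufflinks 2.2.0, and deposited FPKM with confidence bounds per gene and library, without read counts. Read depth of each library is therefore known here only as a relative depth, read from these bounds (0.890 to 1.18). The 52 entries that repeat a gene identifier were added to the first. The authors' diffReps 1.55.4 table holds deposited normalised coverage signal of captured regions, and the metilene 0.2-7 tables hold methylation as a fraction per group. Columns with the authors' own fold changes and p-values were not used, nor was their table of differential expression.

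Members and lists were chosen with earlier results of these data known. FPKM was divided by median-of-ratios size factors (0.697 to 1.21), pig-572 entered as the mean of the libraries titled with its number, and log2(value + 1) of genes with a mean of at least 1 was tested by limma 3.58.1 in R 4.3.3 (trend, Benjamini-Hochberg adjustment over 10170 genes, threshold 0.05). A fold change on this scale understates that of low genes. Adjusted p-values in the text are from this fit, which was tested on simulated data. Beside it stands, for single genes, a permutation test on the 5 against 5 pigs, exact and two-sided.

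The genes named are the 8 with the highest mean among those above 0 in all libraries, those with an unadjusted p under 0.05 and those overlapped by a captured or bisulfite region, with the fixed families, proteins and hosts. SNORD17, snoU89, SNORD94, SNORD46, the second copies and the hosts RPL3, RPL13A, PHB2, PTCD3, HSPA9 and RABGGTB were named after their values were seen. Replicates are single pigs. Alternatives were another pseudocount (0.1, 100), no filter, no or upper-quartile scaling, other uses of pig-572, no trend, leaving out each pig, and, chosen after seeing the data, fragments in place of FPKM and the members above 0 in all libraries alone. One host gene is counted, but its own values are not reported here.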

Additional observations from a re-analysis of the deposited data

Results flagged for a closer look

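Among 24 groups of 5 pigs (12 named genes, lean and obese), 2 had a pig far from the others, where chance gives about 1 in 20 groups. The lean pig-413 had 3489.7 scaled FPKM for the first snoU6-53 gene, with a gap to the next lean pig of 0.714 of the range. The obese pig-529 had 2887 scaled FPKM for the second SNORD116 gene, with a gap of 0.712 of the range. It rested on 2.34 implied fragments, a number that is too low for reads divided among copies.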

How the results depend on the processing

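None of the members passed an adjusted p of 0.05 under any of the alternatives run. None of the 12 genes chosen by the naming rule changed direction. Of the 19 members above 0 in all libraries 2 did, SNORD94 under 6 of 20 alternatives and the second snoU6-53 gene without pig-433, and so did 6 of the 31 other members tested, 4 of the 24 hosts and 8 of the 20 listed proteins. The unadjusted p of snoU13 stayed under 0.05 in all 20 alternatives, with a lowest adjusted p of 0.0824 in limma. The number of all genes past the threshold was 1, and 8 with a pseudocount of 100, 5 with no filter on low values, 0 with FPKM as deposited, 155 with the libraries of pig-572 separate, and 16 with its second library alone. Leaving out single pigs gave 1 to 146 genes, the highest without lean replicate 1 (pig-402). The number of members with an unadjusted p under 0.05 was 3, and 5 with the libraries of pig-572 separate. Leaving out single pigs gave 2 to 8 members, with 8 without pig-402 and 5 without pig-577. The cause was not tested. The share of the members was 12.7% of the summed FPKM in lean and 11.2% in obese pigs, which is 55.2% and 44.1% of the FPKM of genes that are no small RNA, and 7.40% and 7.55% without the highest member. No paired analysis was possible because the replicate numbers only name the pigs and no label pairs lean with obese animals.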
